A study of Mus musculus with 12 samples.

Results

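Thbs1 and 8 other genes known as targets of the coactivator YAP or of serum response factor (SRF) were followed across 12 RNA sequencing libraries of primordial germ cell-like cells (PGCLCs) of the mouse. The 9 genes, Thbs1, Gem, Ccn1 (also called Cyr61), Ccn2 (Ctgf), Ankrd1, Amotl2, Ajuba, Tagln and Acta2, are 9 of 35975 genes counted, and they were picked by name after Thbs1 and Gem were seen to be low in TKO cells primed for 96 h. The values that chose them are therefore the levels in the 96 h libraries, which are given as a description with no test. The rule names no group that the 96 h libraries were set against, so libraries of the other groups may have entered the choice as well.

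PGCLCs are a culture model of early germ cells, derived here from the E14TG2a line of mouse embryonic stem cells. In all groups the stem cells were grown in 2i with vitamin C, then primed to epiblast-like cells (EpiLCs), then aggregated for 4 days with LIF, EGF, SCF, BMP8 and BMP4. The 4 groups were TKO cells primed for 40 h (TKO_40h), 48 h (TKO_48h) and 96 h (TKO_96h), and wild-type cells primed for 40 h (WT_40h), with 3 biological replicates each. TKO is known from the study to stand for knockouts of the DNA methyltransferase genes Dnmt1, Dnmt3a and Dnmt3b. No clone is named for either genotype, so other differences between the lines cannot be told apart from the knockouts, and WT was sequenced at 1 priming time. Whether the aggregates were sorted before RNA extraction is not stated. In such bulk RNA fewer cells of a type and less RNA per cell cannot be told apart. The replicates are labelled biological, and p-values measure the spread between them.

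The Hippo pathway is a kinase cascade in which STK3 and STK4 activate LATS1 and LATS2, which phosphorylate YAP and its relative TAZ (gene Wwtr1) and hold them in the cytoplasm. Unphosphorylated YAP enters the nucleus and binds TEAD factors, which recognise the MCAT element. SRF binds the CArG box with one of 2 kinds of partner: the MRTF coactivators, which are freed when actin polymerises, or ELK factors, which respond to ERK signalling. In the early mouse embryo YAP and TEAD4 are known for their part in forming the trophectoderm.

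Libraries held 6570180 to 9114128 estimated counts. Transcripts of the 3 targeted genes were still counted in TKO, with Dnmt1 at 64.9 to 152 CPM (counts scaled to library size by TMM) in the 9 TKO libraries against 426 to 450 CPM in WT_40h, Dnmt3a at 25.4 to 73.1 against 358 to 436 CPM, and Dnmt3b at 13.4 to 55.4 against 157 to 215 CPM. All 10 germ cell markers, among them Prdm1, Tfap2c, Dppa3 and Nanos3, had counts in every group, with summed levels of 1150 to 1230 CPM in TKO_40h, 1220 to 1540 CPM in TKO_48h, 1290 to 1520 CPM in TKO_96h and 1080 to 1130 CPM in WT_40h. Pou5f1, Nanog and Alpl made up most of these sums. Prdm1 and Tfap2c, which specify germ cells, averaged 20.9 and 48.6 CPM in TKO_40h, 34.4 and 68.4 CPM in TKO_48h, 10.4 and 28.1 CPM in TKO_96h, and 29.3 and 46.7 CPM in WT_40h, and both were called lower in TKO_96h than in each other group. For Tfap2c against TKO_40h the adjusted p was 0.079 with an offset for effective transcript length. Pou5f1, a pluripotency factor that germ cells keep, averaged 525 ± 20.5, 589 ± 93.0, 794 ± 107 and 494 ± 9.63 CPM in the same order. It was called higher in TKO_96h than in TKO_40h (edgeR adjusted p = 0.0017), TKO_48h (0.012) and WT_40h (0.00034). The call against TKO_48h ended without TKO_96h replicate 1 (0.073). Dppa3 averaged 51.5 CPM in TKO_40h, 47.2 CPM in TKO_48h, 18.5 CPM in TKO_96h and 16.7 CPM in WT_40h. It was called lower in TKO_96h than in TKO_40h and TKO_48h (edgeR adjusted p = 6.5e-05 and 9.7e-05), and not against WT_40h (0.68). In TKO_40h and TKO_48h it was called higher than in WT_40h (0.00015 and 0.00035). Kit went the other way, at 60.9 ± 5.27 CPM in TKO_40h against 104 ± 23.2 CPM in WT_40h (edgeR adjusted p = 0.0065). That call ended without WT_40h replicate 1 (0.054). Kit was called higher in TKO_48h than in TKO_40h (0.031), which ended in 5 of 12 other settings. The other 8 germ cell markers were not called between TKO_40h and WT_40h. Alpl was called lower in TKO_96h than in TKO_48h only (0.0063, and 0.051 with the length offset). Kit, Nanog, Prdm14, Nanos3 and Dnd1 were not called in any comparison with TKO_96h. TKO_48h replicate 1 had the fewest genes with 10 counts, 13530, and its 10 most abundant genes held 14.59% of the counts. Of the 9 genes, 7 passed the filter on low counts, and Ankrd1, with 83 counts over all libraries, and Acta2, with 7, did not. Among the 7, Gem reached 10 counts in 7 libraries, Thbs1 in 10 and Tagln in 3. These passed through the groups where they are high, so counts over the 7 are not counts over all 9 genes.

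The upstream sequence of Ccn1 is shown because it is a textbook YAP target and a TEAD motif stands close to its start. The set of RefSeq promoters used here (GRCm38.p6) has an entry for 5 of the 9 genes: Ccn1, Amotl2, Ajuba, Ankrd1 and Acta2. Thbs1, Gem, Ccn2 and Tagln have no entry in this set and are named only. The 250 bases before the Ccn1 start (chr3:145649986-145650235, minus strand, written 5′ to 3′ along the gene) overlap no GENCODE M21 exon, and capitals mark the MCAT core read on the opposite strand:
Ccn1: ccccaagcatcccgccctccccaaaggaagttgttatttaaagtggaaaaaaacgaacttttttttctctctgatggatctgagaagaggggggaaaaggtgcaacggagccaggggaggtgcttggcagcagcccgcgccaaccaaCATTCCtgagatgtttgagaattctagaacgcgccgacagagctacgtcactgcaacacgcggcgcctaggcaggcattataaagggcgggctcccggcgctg

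The MCAT core GGAATG, or CATTCC where it is read on the other strand, occurred in all 5 windows. The same letters on either strand stand in 12.6% of 32851 such windows of 250 bases in the table. The stretches of 26 bases around each match, in capitals, are shown so that their flanks can be compared:
Ccn1: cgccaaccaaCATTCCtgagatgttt
Amotl2: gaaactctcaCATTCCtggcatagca
Ajuba first: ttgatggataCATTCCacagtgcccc
Ajuba second: cccctccgcgCATTCCaactgtaaac
Ankrd1 first: cactgccaaaGGAATGaccctctcac
Ankrd1 second: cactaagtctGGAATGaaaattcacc
Acta2: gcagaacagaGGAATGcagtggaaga
The first base of the match lies 103 bases before the start in Ccn1, 65 in Amotl2, 186 and 164 in Ajuba, 210 and 123 in Ankrd1 and 146 in Acta2. The matches of Amotl2, Ankrd1 and Acta2 fall inside GENCODE exons, since GENCODE places a start further upstream. The CArG box was searched as CC, 6 bases of A or T, and GG, with no mismatch allowed. This exact form, found in 1.47% of all windows, and the AP-1 motif TGANTCA, found in 6.75%, occurred on either strand in 0 of the 5. No counted motif therefore overlapped another. The Acta2 window holds CCCTATATGG and CCTTGTTTGG, each with a C or G inside the core, and such near matches were not counted in any window. Such matches describe letters in these windows, and no binding was measured.

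Thbs1 encodes thrombospondin-1, a secreted matrix glycoprotein known to activate latent TGF-beta and to inhibit the growth of blood vessels (GRCm38 chromosome 2, 118111876 to 118127133, plus strand). It was at 27.4, 29.6 and 27.3 CPM in TKO_40h, 8.76, 4.55 and 10.5 CPM in TKO_48h, 0, 1.54 and 0.396 CPM in TKO_96h, and 5.01, 5.21 and 6.91 CPM in WT_40h. The TKO_40h libraries stood above all others, the TKO_48h and WT_40h libraries overlapped, and the TKO_96h libraries, with 0, 11 and 3 counts, were below every other library. All counts of Thbs1 fell on its full-length coding transcript, and none on the short retained-intron form.

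Thbs1 was higher in TKO_40h than in WT_40h by a log2 fold change of 2.3 ± 0.41 (SE, n = 3 against 3, edgeR quasi-likelihood test, Benjamini-Hochberg adjusted p = 0.0039). It fell in TKO_48h relative to TKO_40h by a log2 fold change of -1.83 ± 0.4 (adjusted p = 0.012). Both calls rest on the TKO_40h libraries, which may have entered the choice of Thbs1, so they describe a picked gene. TKO_48h and WT_40h differed by 0.47 ± 0.42, which did not pass (adjusted p = 0.59). In TKO_96h the fitted log2 difference was -5.39 from TKO_40h, -3.57 from TKO_48h and -3.09 from WT_40h, with no test, and without TKO_96h replicate 2, which holds 11 of its 14 counts there, these became -6.95, -5.13 and -4.65. The call between TKO_48h and TKO_40h ended without TKO_40h replicate 1 or 2 (adjusted p = 0.051 and 0.057), while that between TKO_40h and WT_40h held without any 1 of the 6 libraries. An offset for the effective transcript length of each library ended both calls (adjusted p = 0.079 and 0.054).

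Ccn1 and Ccn2 encode secreted matrix proteins that bind integrins and growth factors, and are the most widely used readouts of YAP activity. Ccn1 (chromosome 3, 145646976 to 145649981, minus strand) was at 42.3, 27.9 and 24.8 CPM in TKO_40h, 14.3, 6.82 and 9.52 CPM in TKO_48h, 14.5, 15.8 and 8.97 CPM in TKO_96h, and 13.7, 17.5 and 15.3 CPM in WT_40h. The TKO_40h libraries were again the highest, without overlap, and the other 3 groups overlapped one another. Ccn2 (chromosome 10, 24595442 to 24598683, plus strand) was at 75.2, 76.8 and 43.9 CPM in TKO_40h, 32.5, 32.4 and 35.5 CPM in TKO_48h, 13.6, 17.8 and 16.4 CPM in TKO_96h, and 45.5, 49.4 and 65.4 CPM in WT_40h. For Ccn2 the TKO_40h and WT_40h libraries overlapped, those of TKO_48h lay below both, and those of TKO_96h were the lowest.

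Ccn1 was higher in TKO_40h than in WT_40h (log2 fold change 1.03 ± 0.28, edgeR adjusted p = 0.047), a call that ended without any 1 of the 6 libraries (adjusted p from 0.062 to 0.29) and with the length offset (adjusted p = 0.18). Ccn2 differed between these groups by 0.29 ± 0.19 and did not pass (adjusted p = 0.52). In TKO_48h relative to TKO_40h both fell, with log2 fold changes of -1.64 ± 0.29 for Ccn1 (adjusted p = 0.0022) and -0.96 ± 0.2 for Ccn2 (adjusted p = 0.0069). Both calls held without any 1 library and under every other setting tried. Relative to WT_40h, Ccn2 was lower in TKO_48h (-0.67 ± 0.2, adjusted p = 0.048), and Ccn1, at -0.61 ± 0.29, did not pass (adjusted p = 0.24). The Ccn2 call ended without any 1 of the 6 libraries (adjusted p from 0.067 to 0.25), with the replicate number as a block (adjusted p = 0.054) and with the length offset (adjusted p = 0.28). In TKO_96h the pair parted: the log2 difference from TKO_48h was 0.37 for Ccn1 and -1.07 for Ccn2, that from TKO_40h was -1.27 and -2.03, and that from WT_40h was -0.24 and -1.74, all described with no test.

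Amotl2 and Ajuba are targets that also act on the pathway. AMOTL2, a junction protein of the angiomotin family, binds YAP and holds it in the cytoplasm, and AJUBA, a LIM domain protein, binds LATS kinases and limits their action. Amotl2 (chromosome 9, 102716672 to 102733418, plus strand) was at 111, 120 and 110 CPM in TKO_40h, 73.7, 54.3 and 79.4 CPM in TKO_48h, 36.5, 54.2 and 53.5 CPM in TKO_96h, and 69.8, 71.4 and 72.5 CPM in WT_40h. Ajuba (chromosome 14, 54567472 to 54577558, minus strand) was at 166, 163 and 137 CPM in TKO_40h, 136, 115 and 136 CPM in TKO_48h, 73.4, 92.8 and 96.3 CPM in TKO_96h, and 131, 117 and 121 CPM in WT_40h. Both were highest in TKO_40h and lowest in TKO_96h, and TKO_48h and WT_40h overlapped for both genes. The TKO_96h libraries of both lay below all others, for Amotl2 only narrowly (54.2 CPM against 54.3 CPM in TKO_48h).

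Amotl2 was higher in TKO_40h than in WT_40h (log2 fold change 0.67 ± 0.15, edgeR adjusted p = 0.016) and fell in TKO_48h relative to TKO_40h (-0.72 ± 0.15, adjusted p = 0.0079). The difference from WT_40h ended without any 1 of the 6 libraries (adjusted p from 0.05 to 0.078), and both calls ended with the length offset (adjusted p = 0.075 and 0.092). Between TKO_48h and WT_40h Amotl2 differed by -0.04 ± 0.15 (adjusted p = 0.91). Ajuba passed none of the 3 tests: 0.33 ± 0.12 in TKO_40h against WT_40h (adjusted p = 0.17), -0.27 ± 0.12 in TKO_48h against TKO_40h (adjusted p = 0.22) and 0.06 ± 0.12 in TKO_48h against WT_40h (adjusted p = 0.84). In TKO_96h the log2 differences from TKO_40h, TKO_48h and WT_40h were -1.24, -0.52 and -0.57 for Amotl2 and -0.83, -0.56 and -0.5 for Ajuba, with no test.

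Gem encodes a small GTPase of the RGK family that inhibits voltage-gated calcium channels (chromosome 4, 11704457 to 11714752, plus strand). It was at 5.94, 5.05 and 7.33 CPM in TKO_40h, 8.42, 5.48 and 3.55 CPM in TKO_48h, 0 CPM in all 3 TKO_96h libraries, and 1.00, 0.534 and 3.59 CPM in WT_40h. These levels rest on few counts: TKO_40h libraries held 38 to 63, TKO_48h libraries 25 to 49, TKO_96h libraries 0 and WT_40h libraries 4 to 26. With its 0 set to a floor of 3 counts summed over the 3 libraries, Gem was at least 43.9-fold lower in TKO_96h than in TKO_40h, at least 40.2-fold lower than in TKO_48h and at least 11.7-fold lower than in WT_40h, which describes the choice of the gene and is no test. Unlike Thbs1, Ccn1, Ccn2 and Amotl2, Gem was not called between TKO_48h and TKO_40h (-0.08 ± 0.61, edgeR adjusted p = 0.97), and whether the genes differ in this was not tested. Its differences from WT_40h were 1.84 ± 0.65 in TKO_40h (adjusted p = 0.16) and 1.77 ± 0.65 in TKO_48h (adjusted p = 0.13). Without WT_40h replicate 3, the highest WT library, the TKO_48h difference became 2.89 and passed (adjusted p = 0.043).

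**Figure D1:**
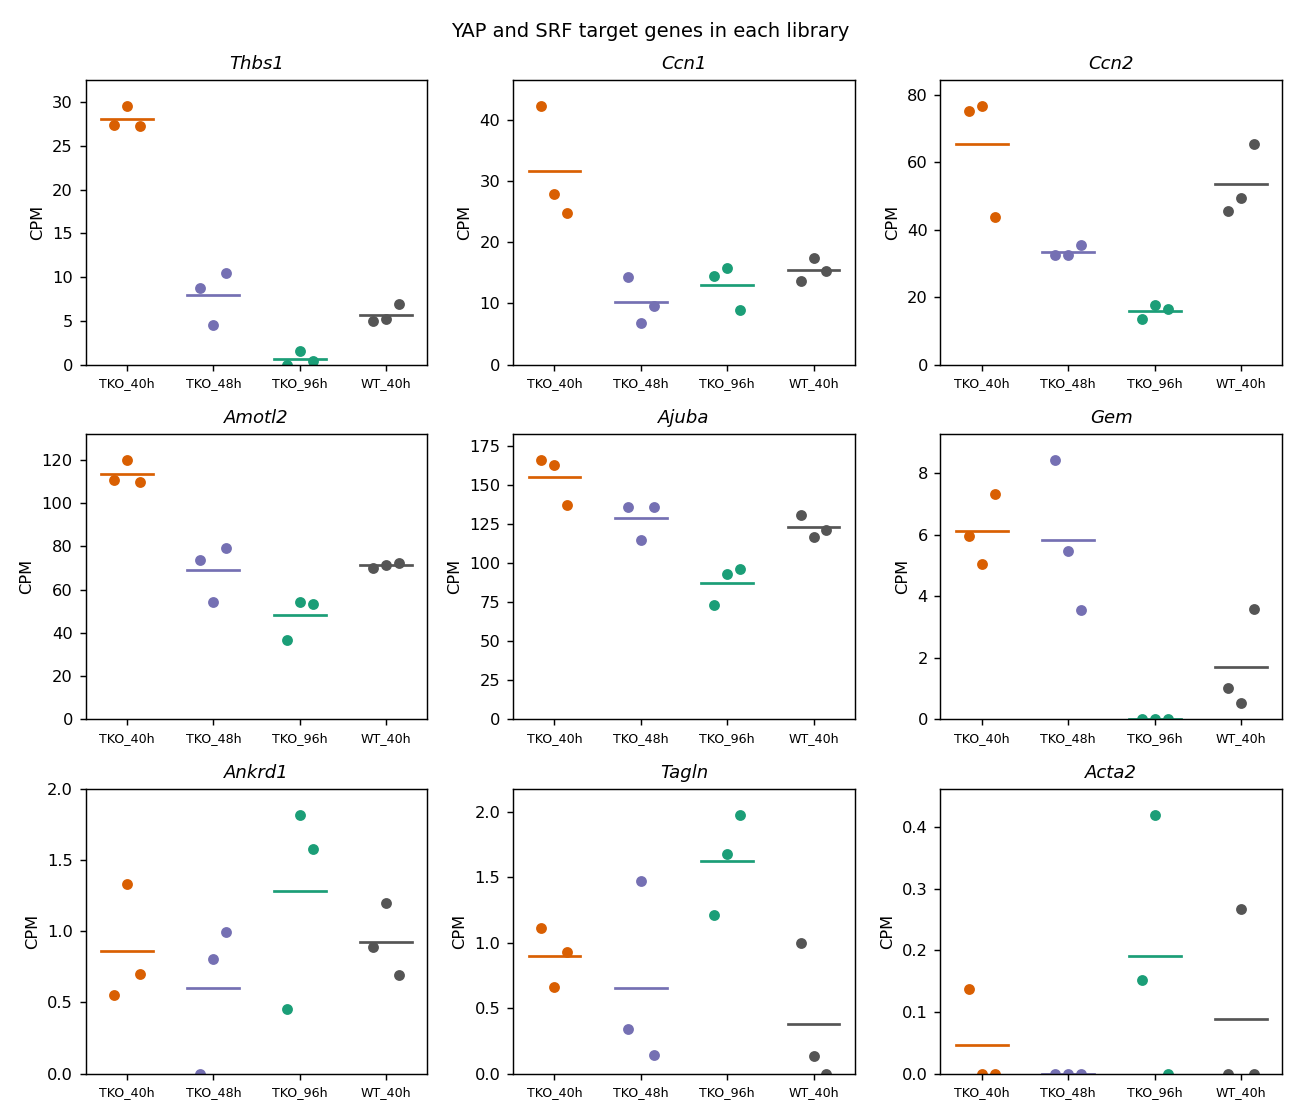
CPM (counts scaled to library size by TMM; linear axes from 0, each panel with its own range) of the 9 genes in each of 12 libraries, by group; points are libraries and lines are group means of 3. Thbs1 in the TKO_40h libraries lies between 27.3 and 29.6 CPM and in the TKO_96h libraries between 0 and 1.54 CPM, and Gem is at 0 CPM in all 3 TKO_96h libraries.

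The muscle-type targets were near the detection limit. Ankrd1, a muscle ankyrin repeat protein and a common YAP readout (chromosome 19, 36111961 to 36120099), ranged from 0.453 to 1.82 CPM in TKO_96h and from 0 to 1.33 CPM in the other 9 libraries. Of its 83 counts 92.8% were assigned to a retained-intron transcript and 0 to its coding transcripts. Acta2, the smooth muscle actin gene (chromosome 19, 34241090 to 34255590), had 1 count in TKO_40h, 0 in TKO_48h, 4 in TKO_96h and 2 in WT_40h, summed over 3 libraries each. Neither was tested, so only their low level is reported.

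Tagln, which encodes the actin-binding protein transgelin of smooth muscle (chromosome 9, 45929619 to 45936058), was at 1.11, 0.665 and 0.931 CPM in TKO_40h, 0.344, 1.47 and 0.142 CPM in TKO_48h, 1.21, 1.68 and 1.98 CPM in TKO_96h, and 1.0, 0.133 and 0 CPM in WT_40h. It was the single tested gene of the 9 whose fitted difference in TKO_96h was above 0 against every other group, at 0.84 against TKO_40h, 1.27 against TKO_48h and 2.0 against WT_40h, on 35 counts in TKO_96h and with no test. Without WT_40h replicate 1 the last became 4.29, without TKO_48h replicate 2 the TKO_48h difference became 2.69, and with the length offset those from TKO_40h and TKO_48h became 2.3 and 2.65. In the other comparisons Tagln did not pass (1.16 ± 1.13 in TKO_40h against WT_40h, -0.43 ± 1.1 in TKO_48h against TKO_40h, 0.73 ± 1.15 in TKO_48h against WT_40h, edgeR adjusted p = 0.71, 0.89 and 0.79). A transcript of 369 bases held 50.1% of its counts in TKO_96h, and Tagln shares 3.93% of its 31-base words with Pcsk7, which overlaps it on the opposite strand, so that its counts are uncertain.

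Markers of cells that use these muscle genes were low in all groups. The 11 smooth muscle and fibroblast markers summed to 22.9 to 30.7 CPM in TKO_40h, 42.8 to 56.0 CPM in TKO_48h, 20.2 to 31.9 CPM in TKO_96h and 35.2 to 40.8 CPM in WT_40h. Desmin (Des) made up much of this, with means of 10.8, 24.8, 9.67 and 19.5 CPM in the same order. In each group 9 to 10 of the 11 markers had counts, with Dcn at 0 in TKO_40h, Postn at 0 in TKO_48h and WT_40h, and Lum and Postn at 0 in TKO_96h. Cardiac markers (8 of 8 with counts) summed to 30.3 to 35.8 CPM in TKO_40h, 36.9 to 54.8 CPM in TKO_48h, 19.5 to 25.8 CPM in TKO_96h and 38.6 to 44.4 CPM in WT_40h. The part of such cells in the levels of Tagln and Ankrd1 was not tested.

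By length-scaled level (the deposited TPM, summed per gene), Amotl2 and Ajuba stood at the top of the 9 genes and Acta2, Ankrd1 and Tagln were at the bottom in TKO_40h, TKO_48h and WT_40h. Amotl2 averaged 51.4 ± 5.16 TPM in TKO_40h, 22.8 ± 2.98 TPM in TKO_48h, 20.4 ± 8.25 TPM in TKO_96h and 24.3 ± 4.71 TPM in WT_40h (SD, n = 3). Ajuba followed with 31.3 ± 2.04, 21.0 ± 2.42, 17.9 ± 3.11 and 23.4 ± 1.64 TPM in the same order, within the spread of Amotl2 in all groups but TKO_40h. Ccn2 came next, at 26.2 ± 8.32, 9.28 ± 3.97, 5.63 ± 2.46 and 16.6 ± 3.41 TPM, and its spread reached that of Ajuba in TKO_40h. Ccn1, in the fourth place, was at 10.8 ± 3.34, 2.7 ± 0.504, 4.45 ± 1.53 and 4.99 ± 0.518 TPM, and it overlapped Ccn2 in TKO_96h. Thbs1 was at 3.09 ± 0.0232, 0.687 ± 0.22, 0.0754 ± 0.0977 and 0.596 ± 0.117 TPM, and Gem at 2.11 ± 0.489, 1.58 ± 0.528, 0 and 0.563 ± 0.549 TPM, so that Gem stood above Thbs1 in TKO_48h, below it in TKO_40h and within its spread in WT_40h. In WT_40h Tagln, at 0.488 TPM, lay within the spread of Gem. In TKO_96h Tagln, at 3.09 ± 0.593 TPM, took the fifth place, a level that its short transcript raises.

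Set against all genes, 3 of the 7 tested genes were called higher in TKO_40h than in WT_40h (Thbs1, Ccn1, Amotl2) and 0 lower, beside 3.1% of all 16178 genes tested, 1.62% higher and 1.48% lower. In TKO_48h relative to TKO_40h, 4 of 7 were called lower (Thbs1, Ccn1, Ccn2, Amotl2) and 0 higher, beside 5.49% of all genes, 2.57% higher and 2.92% lower. In TKO_48h relative to WT_40h, 1 of 7 was called lower (Ccn2) and 0 higher, beside 5.66% of all genes, 2.84% higher and 2.82% lower. The first pair of comparisons share the TKO_40h libraries, so the higher level in one and the lower level in the other are not 2 separate findings. If the genes were picked by setting TKO_96h against TKO_40h, that choice favoured high levels in these same libraries. The group used for the choice is not known, so the counts beside these shares are a description of the picked genes. With the length offset 0 of 7 were called between TKO_40h and WT_40h, 2 between TKO_48h and TKO_40h and 0 between TKO_48h and WT_40h, and leaving out any 1 library left 1 call, that of Thbs1, between TKO_40h and WT_40h.

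**Figure D2:**
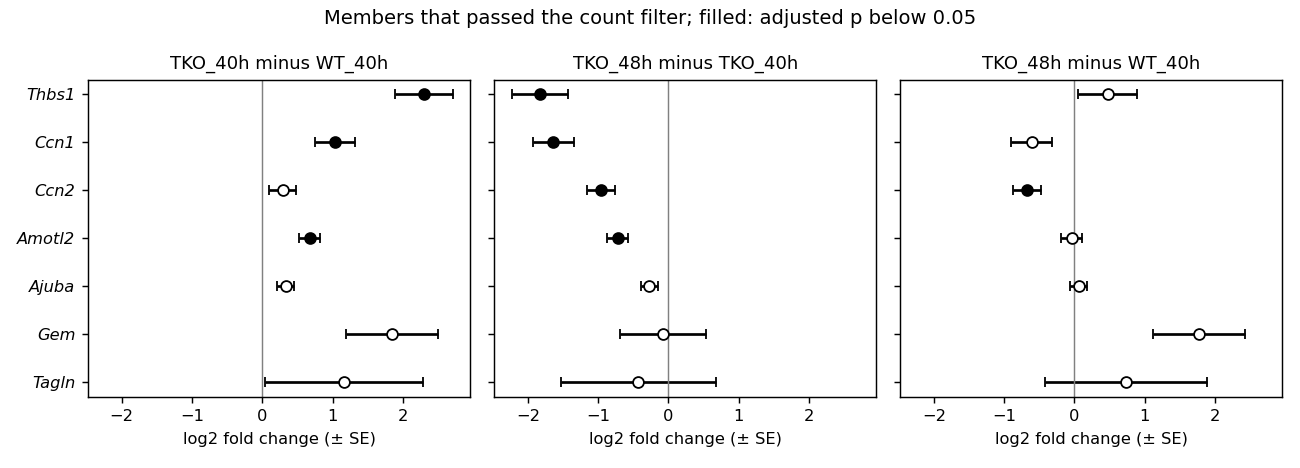
Log2 fold changes (x axis, with bars of 1 SE) of the 7 tested genes in TKO_40h minus WT_40h, TKO_48h minus TKO_40h and TKO_48h minus WT_40h; filled points have an edgeR adjusted p below 0.05. Thbs1, at 2.3 in the first panel and -1.83 in the second, lies farthest from 0 in both, and Gem and Tagln carry the widest bars.

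Across the 12 libraries the log2 levels of Thbs1 and Ajuba moved together (Pearson r = 0.96), as did Thbs1 and Amotl2 (0.95), Ccn2 (0.88) and Gem (0.86), while r was 0.55 with Ccn1 and -0.38 with Tagln. These are descriptions over libraries that fall into 4 groups, and the low TKO_96h libraries, which chose the genes, enter each of them. Outside the 9 genes, Fam91a1, Dennd4c, Taf7l, Peg10 and Ptpn13 followed Thbs1 most closely (r = 0.97 each over 12 libraries). They were ranked among 10879 tested genes that averaged 5 CPM or more, with predicted genes (Gm or Rik symbols) left out. Peg10, an imprinted gene of the placenta, averaged 3120 ± 69.3 CPM in TKO_40h, 1810 ± 326 CPM in TKO_48h, 416 ± 49.8 CPM in TKO_96h and 1230 ± 114 CPM in WT_40h, and Ptpn13, a tyrosine phosphatase gene, 184 ± 12.1, 141 ± 2.86, 82.4 ± 8.51 and 126 ± 8.34 CPM in the same order. The genes closest to Gem were Sgo2a, Igf2bp2 and Podxl (r = 0.95) and Adgra2 and Itga3 (0.94). Podxl, a surface sialomucin gene, averaged 87.3 ± 5.76 CPM in TKO_40h, 66.4 ± 8.03 CPM in TKO_48h, 28.6 ± 4.95 CPM in TKO_96h and 52.1 ± 8.35 CPM in WT_40h.

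Of 18 other known YAP targets 15 were tested: 1 was higher and 2 lower in TKO_40h than in WT_40h, where 3.1% of all genes were called. Further, 1 was higher in TKO_48h than in TKO_40h (5.49% of all genes), and 1 was higher in TKO_48h than in WT_40h (5.66%). The 3 calls at 40 h became 0 with the length offset. They became 1 when either of replicates 1 and 2 of TKO_40h, or of replicates 2 and 3 of WT_40h, was left out. The list's median log2 differences were 0.09, 0.06 and 0.13, while those of all tested genes lay between -0.01 and 0.01 in all comparisons. Myof, a membrane repair gene, was higher in TKO_48h than in WT_40h (115 ± 11.6 against 59.4 ± 10.7 CPM, edgeR adjusted p = 0.0005), and Ptpn14, a phosphatase gene that restrains YAP, was lower in TKO_40h than in WT_40h (98.9 ± 5.08 against 151 ± 16.3 CPM, adjusted p = 0.0047). Arhgef17, a guanine nucleotide exchange factor gene, was at 45.0 ± 9.93 CPM in TKO_40h, 80.4 ± 6.24 CPM in TKO_48h and 73.4 ± 1.99 CPM in WT_40h, higher in TKO_48h than in TKO_40h (adjusted p = 0.0023) and lower in TKO_40h than in WT_40h (adjusted p = 0.012). The last call held without WT_40h replicate 1 or TKO_40h replicate 3 and ended without any other library (adjusted p from 0.051 to 0.082), and the length offset ended both Arhgef17 calls and that of Ptpn14 (adjusted p = 0.092, 0.34 and 0.15). Myof was also called higher in TKO_40h than in WT_40h (0.54 ± 0.14, adjusted p = 0.036), which held only without WT_40h replicate 1 among the 6 (adjusted p of the others from 0.061 to 0.16).

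Of 22 structural SRF and MRTF targets 19 were tested, with 2 higher and 2 lower in TKO_40h than in WT_40h (3.1% of all genes). In TKO_48h 1 was higher than in TKO_40h (5.49%), and 1 higher and 1 lower than in WT_40h (5.66%). Their medians were -0.04, 0.01 and 0.11. The 4 calls at 40 h became 1 without any 1 of the 6 libraries. The 2 in TKO_48h against WT_40h became 5 without TKO_48h replicate 2, 1 without WT_40h replicate 1 and 0 with the length offset. Actg1, cytoplasmic gamma actin, was at 1170 ± 157 CPM in TKO_40h, 947 ± 174 CPM in TKO_48h and 622 ± 38.3 CPM in WT_40h, higher than WT_40h in TKO_40h (edgeR adjusted p = 0.00048) and in TKO_48h (adjusted p = 0.0098, and 0.053 without WT_40h replicate 1). Flna, the actin crosslinker filamin A, was at 315 ± 29.8 CPM in TKO_40h, 275 ± 19.0 CPM in TKO_48h and 427 ± 17.8 CPM in WT_40h, lower than WT_40h in both (adjusted p = 0.041 and 0.0029). Des, the muscle filament gene named above, was higher in TKO_48h than in TKO_40h by 1.2 ± 0.23 (adjusted p = 0.0043) and lower in TKO_40h than in WT_40h (adjusted p = 0.046), and Actb, cytoplasmic beta actin, was at 2990 ± 132 CPM in TKO_40h against 2220 ± 29.6 CPM in WT_40h (adjusted p = 0.035). The calls of Flna, Des and Actb in TKO_40h against WT_40h ended without any 1 of the 6 libraries (adjusted p from 0.074 to 0.22), and the length offset ended those of Flna and Actg1 in TKO_48h (adjusted p = 0.082 and 0.12). Actin genes have near-identical copies that could share counts. Srf itself was at 45.5 ± 5.73 CPM in TKO_40h, 43.0 ± 9.37 CPM in TKO_48h, 38.0 ± 2.23 CPM in TKO_96h and 49.7 ± 2.83 CPM in WT_40h, with no call in any comparison.

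Of 10 immediate early genes, which ERK induces through SRF and ELK factors, 9 were tested. In TKO_48h 5 were lower and 0 higher than in TKO_40h (median -1.29, beside 5.49% of all genes called), and 5 lower and 1 higher than in WT_40h (median -1.34, beside 5.66%). In TKO_40h 1 was higher than in WT_40h (median 0.21, beside 3.1%). The other 4, among them Mcl1 at 609 ± 52.9 CPM in TKO_48h against 619 ± 22.5 CPM in TKO_40h, were not called in TKO_48h against TKO_40h. The 6 calls in TKO_48h against WT_40h became 5 without TKO_48h replicate 1, 3 without any other of the 6 libraries, and 3 with the length offset. Egr1, a zinc finger factor, averaged 251 ± 35 CPM in TKO_40h, 38.4 ± 8.9 CPM in TKO_48h, 77.7 ± 8.53 CPM in TKO_96h and 141 ± 7.4 CPM in WT_40h. Its difference was 0.83 ± 0.14 in TKO_40h against WT_40h (edgeR adjusted p = 0.0028) and -2.71 ± 0.16 in TKO_48h against TKO_40h (adjusted p = 4e-09). The AP-1 genes Fosb and Fos fell in TKO_48h relative to TKO_40h (-3.7 ± 0.26 and -2.14 ± 0.27, adjusted p = 7.8e-08 and 0.00017), as did Junb (-1.29 ± 0.19, adjusted p = 0.00062). The fifth was Ier2 (-0.7 ± 0.11, adjusted p = 0.0014), and the 1 gene higher in TKO_48h than in WT_40h was Nr4a1 (0.9 ± 0.26, adjusted p = 0.045), both named after their values were seen. Thbs1, Ccn1 and Amotl2 were highest in the same group as Egr1. In TKO_48h against WT_40h Egr1 was lower (-1.88 ± 0.15, adjusted p = 5.1e-07), where Thbs1, Ccn1 and Amotl2 were not called (0.47, -0.61 and -0.04). In TKO_96h against TKO_48h the log2 difference was 1.02 for Egr1. It was -3.57 for Thbs1, 0.37 for Ccn1 and -0.52 for Amotl2, described with no test. The part of ERK signalling in the levels of these genes was not tested.

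**Figure D3:**
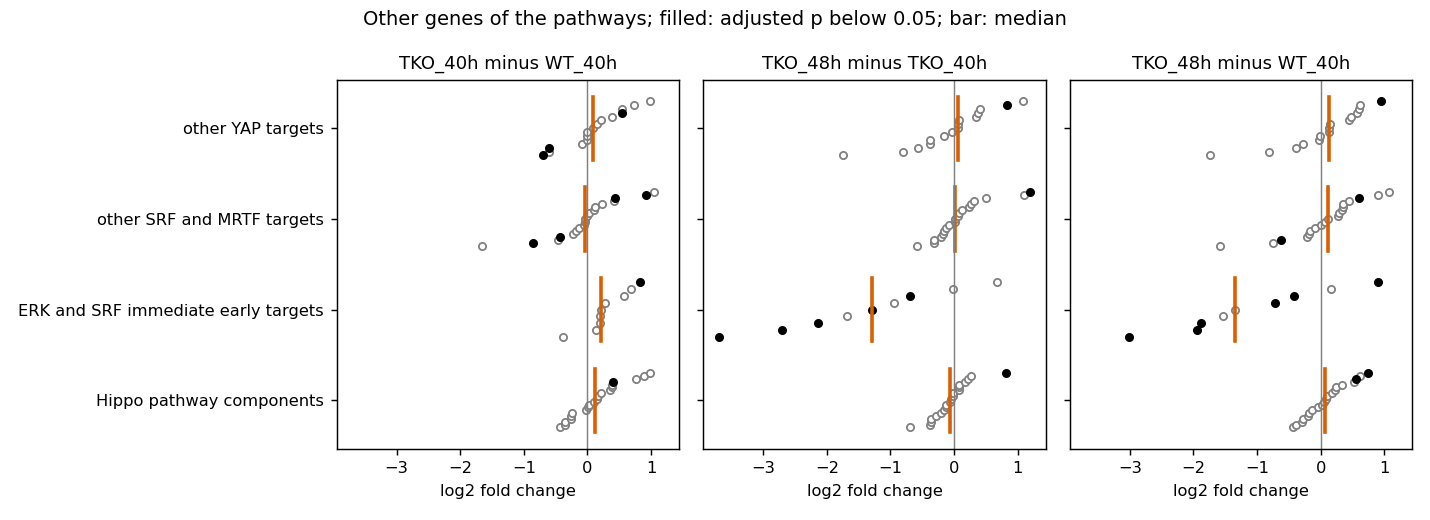
Log2 fold changes (x axis) of the tested genes of 4 lists in TKO_40h minus WT_40h, TKO_48h minus TKO_40h and TKO_48h minus WT_40h; each point is a gene, filled points have an edgeR adjusted p below 0.05, and orange bars mark the list median. The immediate early genes have medians of -1.29 and -1.34 in the panels of TKO_48h, while the other 3 lists have medians between -0.06 and 0.13.

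Of 20 Hippo pathway components, all tested, 1 was higher in TKO_40h than in WT_40h, 1 higher in TKO_48h than in TKO_40h, 2 higher in TKO_48h than in WT_40h, and 0 lower in any of these (medians 0.13, -0.06 and 0.08), where 3.1%, 5.49% and 5.66% of all genes were called. Yap1 itself was at 172 ± 3.57 CPM in TKO_40h, 172 ± 17.6 CPM in TKO_48h, 153 ± 15.3 CPM in TKO_96h and 161 ± 2.2 CPM in WT_40h and was called in none of the comparisons. Amotl1, a paralogue of Amotl2, was higher in TKO_48h than in TKO_40h (78.5 ± 5.23 against 44.6 ± 4.77 CPM, edgeR adjusted p = 0.0051), the opposite direction to Amotl2, and higher in TKO_48h than in WT_40h (53.6 ± 7.46 CPM, adjusted p = 0.043). Wwc2, a scaffold gene that activates LATS kinases, was higher in TKO_40h than in WT_40h (0.4 ± 0.11, adjusted p = 0.044) and Tead4 higher in TKO_48h than in WT_40h (0.75 ± 0.22, adjusted p = 0.047). The calls of Wwc2, Tead4 and Amotl1 against WT_40h ended without any 1 of the 6 libraries (adjusted p from 0.053 to 0.2).

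Of 24 paralogues of the 9 genes 14 were tested. Of these 2 were higher in TKO_40h than in WT_40h (the actins Actb and Actg1), 1 was higher in TKO_48h than in TKO_40h (Amotl1), 3 were higher in TKO_48h than in WT_40h (Actg1, Amotl1, Tagln2), and 0 were lower (medians -0.12, 0.07 and 0.2, beside 3.1%, 5.49% and 5.66% of all genes called). Tagln2, a transgelin found outside smooth muscle, was at 91.3 ± 5.69 CPM in TKO_48h against 64.5 ± 2.83 CPM in WT_40h (edgeR adjusted p = 0.015), a call that ended without WT_40h replicate 1, WT_40h replicate 3 or TKO_48h replicate 3 (adjusted p from 0.052 to 0.068). The thrombospondin genes Thbs2 and Thbs3 averaged 1.41 to 2.99 CPM and 3.8 to 7.58 CPM over the 4 groups and were called in none of the comparisons.

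Of the 19 structural SRF targets tested, 9 were lower and 0 higher in TKO_96h than in TKO_40h, where 12.1% of all genes were called, 4.94% higher and 7.2% lower. Relative to TKO_48h 10 were lower and 0 higher, where 19.5% were called, 8.82% higher and 10.7% lower. Relative to WT_40h 9 were lower and 1 higher, where 19.2% were called, 9.1% higher and 10.1% lower. The others, Srf and Vcl among them, were not called. The list's medians against TKO_40h, TKO_48h and WT_40h were -0.48, -0.6 and -0.66. Over all genes the calls against TKO_40h, TKO_48h and WT_40h, 1965, 3157 and 3099, became 829, 1639 and 1466 with the length offset, and the first became 1210 without TKO_40h replicate 3. Cnn2, an actin-binding calponin, was at 4.37 ± 1.97 CPM in TKO_96h against 17.1 ± 4.32 CPM in TKO_40h (-1.96 ± 0.29, edgeR adjusted p = 0.00016). The tropomyosin gene Tpm2 was at 5.45 ± 0.389 CPM in TKO_96h against 16.5 ± 3.89 CPM in TKO_40h (-1.6 ± 0.27, adjusted p = 0.00056), and Zyx, a focal adhesion gene, at 17.9 ± 4.25 against 37.4 ± 2.25 CPM (-1.06 ± 0.19, adjusted p = 0.00076). Flna was lower in TKO_96h than in TKO_40h as well (-0.78 ± 0.12, adjusted p = 0.00013), whereas Actg1, at 1150 ± 135 CPM in TKO_96h, was higher than in WT_40h (0.88 ± 0.13, adjusted p = 9.4e-05) and not called against TKO_40h (-0.04 ± 0.13, adjusted p = 0.91). Cnn2, Tpm2 and Zyx were named after their values were seen, and their calls against TKO_40h held under all 12 other settings.

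Other YAP targets in TKO_96h had 1 higher and 3 lower of 15 against TKO_40h, 0 higher and 6 lower against TKO_48h, and 1 higher and 3 lower against WT_40h (medians -0.46, -0.38 and -0.3), where 12.1%, 19.5% and 19.2% of all genes were called. The 4 calls against TKO_40h became 1 without TKO_40h replicate 2, without TKO_96h replicate 3 or with the length offset, and 2 without TKO_40h replicate 1 or TKO_96h replicate 1. The 6 against TKO_48h became 2 without TKO_96h replicate 1, 3 without TKO_48h replicate 2 and 2 with the offset. Those lower than in TKO_40h were Fjx1, Gadd45a and Nuak2, and those lower than in WT_40h were Fjx1, Arhgef17 and Ptpn14, with Fjx1, Gadd45a and Nuak2 named after their values were seen. The call of Nuak2 ended without any 1 of the 6 libraries (adjusted p from 0.058 to 0.16). That of Gadd45a ended in 5 of 12 other settings, 4 of them with 1 library left out (highest adjusted p = 0.19). Fjx1, a secreted kinase-like protein gene, was at 9.38 ± 2.67 CPM in TKO_96h against 29.6 ± 5.39 CPM in TKO_40h (-1.66 ± 0.26, edgeR adjusted p = 0.00028) and 20.3 ± 4.2 CPM in WT_40h. Myof went the other way, at 125 ± 15.1 CPM in TKO_96h against 59.4 ± 10.7 CPM in WT_40h (1.07 ± 0.14, adjusted p = 2e-05). Immediate early genes had 0 higher and 6 lower of 9 against TKO_40h and 0 higher and 5 lower against WT_40h, with Fos at 6.5 ± 0.809 CPM in TKO_96h against 56.4 ± 15.3 CPM in TKO_40h and 49.4 ± 12.6 CPM in WT_40h. Against TKO_48h 3 were higher (Egr1, Ier2, Junb) and 3 lower (Fos, Mcl1, Nr4a1), with Egr1 at 1.02 ± 0.15 (adjusted p = 9.1e-05). These 6 became 3 without TKO_96h replicate 1 or 3 and 2 with the length offset. The calls of Junb, Nr4a1 and Fos against TKO_48h ended in 6, 6 and 5 of 12 other settings (highest adjusted p = 0.11, 0.23 and 0.27). Against TKO_40h the call of Junb ended in 5 of 12 (highest adjusted p = 0.15). Egr3, named after its values were seen, had 1 count in TKO_96h and was called lower than in TKO_40h and WT_40h. Both Egr3 calls ended in 8 of 11 other settings (highest adjusted p = 0.19 and 0.13).

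Among Hippo components 1 was higher and 4 lower of 20 in TKO_96h than in TKO_40h, 0 higher and 3 lower than in TKO_48h, and 1 higher and 5 lower than in WT_40h (medians -0.26, -0.16 and -0.12), beside 12.1%, 19.5% and 19.2% of all genes. The 5 calls against TKO_40h became 3 without TKO_40h replicate 1 and 2 with the length offset. The 3 against TKO_48h became 6 without TKO_48h replicate 1, and the 6 against WT_40h became 2 without WT_40h replicate 3. Wwtr1, which encodes TAZ, was at 28.9 ± 3.77 CPM in TKO_96h against 46.5 ± 3.0 CPM in TKO_40h (-0.69 ± 0.15, edgeR adjusted p = 0.0048) and 47.2 ± 0.782 CPM in WT_40h (-0.71 ± 0.15, adjusted p = 0.0026). Amot, the founding member of the family of Amotl2, was at 14.9 ± 6.09 CPM in TKO_96h against 60.8 ± 8.14 CPM in TKO_40h (-2.03 ± 0.28, adjusted p = 8e-05, and 0.058 with the length offset). The others lower than in TKO_40h were Tead1 and Wwc1, and Tead2 was higher. The call of Tead1 against TKO_40h ended in 6 of 12 other settings (adjusted p to 0.17). Its call against WT_40h, also lower (-1.05, adjusted p = 0.0047), held in all 12. The call of Wwc1 against TKO_40h ended in 2, with the offset (0.1) and without TKO_40h replicate 1 (0.056). These 5 genes were named after their values were seen. Paralogues of the 9 genes had 0 higher and 3 lower of 14 against TKO_40h, 0 higher and 2 lower against TKO_48h, and 2 higher and 2 lower against WT_40h (medians -0.27, -0.44 and -0.6), beside the same 12.1%, 19.5% and 19.2% of all genes. With the length offset 0, 1 and 1 paralogues were called.

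Markers of other cell types differed beside these values. The endoderm markers Afp and Apoa1 were at 0 CPM in all 3 TKO_96h libraries, where Gem also had no count, and averaged 3.05 and 2.52 CPM in TKO_40h, 3.33 and 2.95 CPM in TKO_48h and 1.62 and 2.27 CPM in WT_40h. The 8 endoderm markers, 6 of which had counts in TKO_96h, summed to 83.1 to 103 CPM in TKO_40h, 41.9 to 73.9 CPM in TKO_48h, 16.4 to 49.9 CPM in TKO_96h and 56.5 to 70.7 CPM in WT_40h. Cubn made up much of these sums, with means of 49.3, 28.3, 16.3 and 33.6 CPM in the same order. It was called lower in TKO_96h than in TKO_40h only (edgeR adjusted p = 0.0069). Gata6, Sox7, Ttr and Dab2 were not called in any comparison with TKO_96h. Trophoblast markers, with 8 of 8 counted in TKO_96h, summed to 59.2 to 69.3 CPM in TKO_40h, 37.5 to 61.6 CPM in TKO_48h, 32.4 to 43.3 CPM in TKO_96h and 34.5 to 47.5 CPM in WT_40h, where Plac1 was at 0. Eomes was called lower in TKO_96h than in TKO_40h and TKO_48h (edgeR adjusted p = 0.00094 and 0.00052), under all 12 other settings. Gata3 was called lower than in TKO_40h (0.033), which ended in 6 of 12 other settings. Elf5 was called higher than in TKO_48h (0.048), which ended in 7 of 12. The 6 trophoblast markers tested were not called against WT_40h. Neural markers, 7 of 8 with counts in TKO_96h, summed to 129 to 149 CPM in TKO_40h, 154 to 173 CPM in TKO_48h, 226 to 253 CPM in TKO_96h and 150 to 171 CPM in WT_40h. Nes and Tubb3 averaged 101 and 51.3 CPM in TKO_96h against 49.3 and 19.2 CPM in TKO_40h. Both were called higher in TKO_96h than in TKO_40h and WT_40h, where Sox1, Pax6, Neurod1 and Zic1 were not called. Relative to TKO_48h, Nes, Tubb3 and Sox1 were called higher. There the calls of Nes and Sox1 each ended in 5 of 12 other settings. Olig2 was at 0 in TKO_40h and TKO_96h, and Neurog2 in TKO_40h and WT_40h. Mesoderm markers summed to 20.5 to 29.7 CPM in TKO_40h, 23.4 to 35 CPM in TKO_48h, 15.4 to 17.9 CPM in TKO_96h, where T was at 0, and 12 to 15.9 CPM in WT_40h. Endothelial markers summed to 72.4 to 89.6, 91.9 to 96.9, 84.9 to 93.4 and 68.5 to 90.5 CPM in the same order, with Emcn at 0 in all groups but TKO_48h. Pecam1 made up most of these sums, with means of 59.8, 70.7, 72.0 and 70.5 CPM. Single markers moved more than these sums, and most did not. Of the mesoderm markers tested, 4 of 5 (Gata4, Msx2, Tbx6 and Foxf1) were not called in TKO_40h or TKO_48h against WT_40h. Of the endothelial markers tested, 4 of 6 (Pecam1, Kdr, Tek and Sox17) were not called there either. Hand1, a mesodermal factor, was at 10.2 ± 3.12 CPM in TKO_40h against 2.0 ± 0.72 CPM in WT_40h (2.35 ± 0.43, edgeR adjusted p = 0.0047, and 0.14 with the length offset). The endothelial factor Sox18 was at 5.17 ± 2.48 CPM in TKO_40h against 0.402 ± 0.581 CPM in WT_40h (3.68 ± 0.78, adjusted p = 0.013). That call ended without TKO_40h replicate 3, without WT_40h replicate 1 or 3, and with the length offset (adjusted p to 0.069). Cdh5, the endothelial cadherin gene, had 60 counts in TKO_40h against 2 in WT_40h (adjusted p = 0.046). Its call ended without any 1 of the 6 libraries and with the length offset (0.069). All 3 were also called higher in TKO_48h than in WT_40h (adjusted p = 0.0024, 0.0024 and 0.036). There the call of Cdh5 ended without 5 of the 6 libraries. The part of these cells in the levels of Thbs1, Gem and the other genes was not tested.

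**Figure D4:**
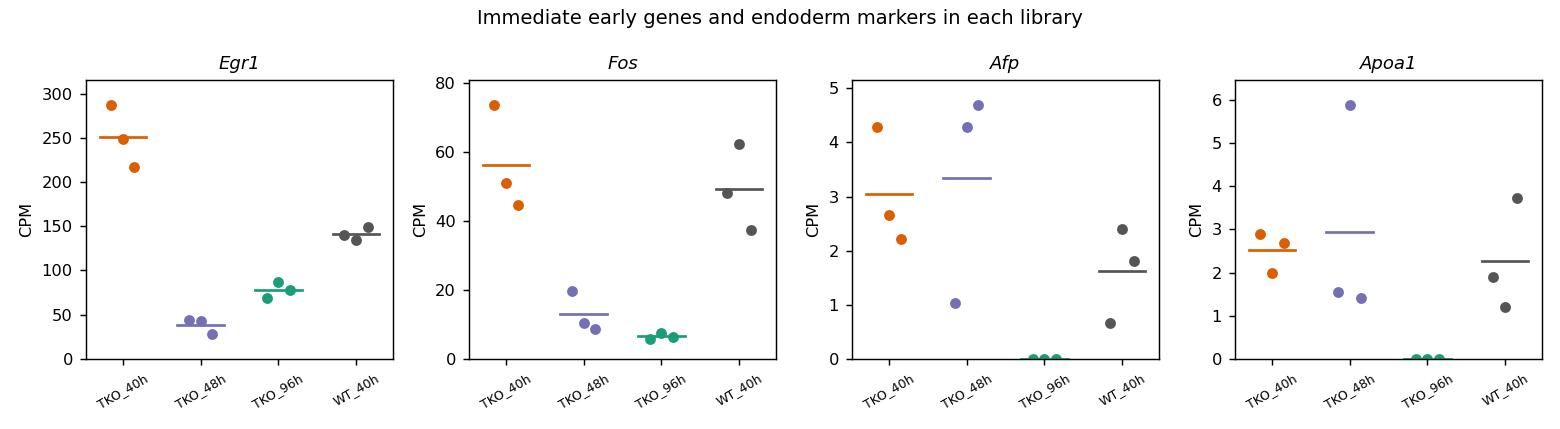
CPM (linear axes from 0) of the immediate early genes Egr1 and Fos and the endoderm markers Afp and Apoa1 in each of 12 libraries, by group; points are libraries and lines are group means of 3. Egr1 averages 251 CPM in TKO_40h and 38.4 CPM in TKO_48h, and Afp and Apoa1 are at 0 CPM in all 3 TKO_96h libraries.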

How the data were processed

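RNA was sequenced from 12 PGCLC cultures, with libraries from a stranded total RNA kit, per the labels' protocols. For every transcript the authors deposited a length, an effective length, an estimated count with no depth scaling, and a TPM value, which divides by effective length and depth. The submitters' processing notes list Trim Galore 0.6.2, kallisto and the build GRCm38 (mm10). Whether quantification used strand is not given in the sources used here, so reads of Thbs1, Ccn2 and Tagln cannot be told apart from genes that overlap them on the opposite strand (Gm29233, Gm15270, Pcsk7 and Gm48529). The files list 119414 transcripts, of which 116728 (97.8%) were matched by ID to GENCODE M21. The 2686 others held 2.68 to 4.32% of the counts.

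Counts were summed per gene and rounded. edgeR 4.0.16 in R 4.3.3 was run on all 12 libraries with 1 mean per group, TMM factors (0.927 to 1.063), filterByExpr (minimum count 10, total 15; 16178 genes kept) and a two-sided quasi-likelihood test, Benjamini-Hochberg adjusted over all genes and called below 0.05. The biological coefficient of variation was 0.241. SE is the absolute log2 fold change over the square root of F. TPM were used for levels between genes only. A floor of 3 counts over a group bounds folds against 0 and covers counting error only, not the spread between replicates. The counts may include PCR copies. The fit was tested on simulated counts. Plots used Python 3.11.15, pandas 2.3.3, numpy 2.4.6 and matplotlib 3.10.9.

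The 9 genes, the gene lists and the markers were chosen with earlier results of these data known. Named from each list are up to 4 genes with the smallest adjusted p called in TKO_40h or TKO_48h comparisons, and the 5 genes most correlated with Thbs1 and with Gem. Other genes are marked where named, apart from Yap1, Srf, Thbs2 and Thbs3, which are given as the pathway's central genes and the relatives of Thbs1. Alternatives were RLE factors, no filter, DESeq2 1.42.0, a replicate block, an effective length offset, only the groups compared, and each library left out in turn. Of the lists tested, 1 is not reported here.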

Additional observations from a re-analysis of the deposited data

How the results depend on the processing

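Of 247 alternative values of the 7 tested genes in the 3 comparisons without TKO_96h, 210 kept direction and side of the threshold, 27 lost a call, 2 gained one and 8 turned sign. No call was among the 8: Gem in TKO_48h against TKO_40h gave 0.0 with the replicate block, 0.08 without TKO_40h replicate 3 and, without 1 library, -0.44 to 0.19. Amotl2 in TKO_48h against WT_40h gave 0.16 with the length offset and -0.14 to 0.1 without 1 library. Tagln in TKO_48h gave -1.85 to 0.04 against TKO_40h and -0.68 to 3.01 against WT_40h without 1 library, and -0.16 against WT_40h with the offset. Ajuba in TKO_40h against WT_40h was called in a fit on those 6 libraries (adjusted p = 0.025).

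Members called between TKO_40h and WT_40h numbered 3, and 0 with the length offset and 1 without any 1 library. Between TKO_48h and TKO_40h there were 4, and 2 with the offset and 3 to 4 without 1 library. Between TKO_48h and WT_40h there was 1, and 0 with the replicate block, 0 with the offset and 0 to 1 without 1 library. Replicate numbers do not pair the libraries (correlations of same-numbered deviations from -0.0598 to 0.0507 over 18 pairs), and the block moved no count of calls elsewhere by more than 1.5 times. Over all genes, 501 calls between TKO_40h and WT_40h became 787 with no filter, 75 with the offset, 1279 with only the groups compared, 780 with DESeq2 and 181 to 217 without 1 library. The 888 calls between TKO_48h and TKO_40h became 203 with the offset and 324 to 1107 without 1 library. The 916 between TKO_48h and WT_40h became 238 with the offset, 586 with only the groups compared and 396 to 1540 without 1 library. Against TKO_40h, TKO_48h and WT_40h the calls in TKO_96h became 1210 to 1676, 2344 to 2991 and 2084 to 2645 without 1 library. For the calls that ended, the cause was not tested, and with 3 libraries a group and 4 to 63 counts of Gem per library where it had any, depth limits Gem, Tagln, Ankrd1 and Acta2 most.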
